A study of Homo sapiens with 3 samples.

Results

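The 45 genes described here encode the DNA replication machinery: the origin recognition complex, the licensing factors, the MCM helicase and its activators, the replicative polymerases and primase, the sliding clamp and its loader, the enzymes that finish lagging strands, replication protein A, 3 enzymes of nucleotide supply and UHRF1. They were taken by symbol from a table of 21572 genes, and all 45 were found. Gene expression had been measured by RNA sequencing in Hep-G2, an established human hepatoma cell line, in 3 lines that each gave 1 library of total RNA at passage 21. The sh#7 line carried the shRNA TRCN0000246247 against FTO and the sh#2 line carried the shRNA TRCN0000255402 against FTO. The control line carried SHC002, which the series calls the scramble. FTO encodes a demethylase that removes N6-methyladenosine from RNA, and the series describes its knockdown as the more efficient in sh#7 and the less efficient in sh#2. The labels do not say whether each line is a clone or a pool. With 1 library a group there are no replicates, so no difference has a test, and an effect of FTO cannot be told apart from an effect of a line.

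Replication starts at origins bound by the origin recognition complex (ORC), where CDC6 and CDT1 load the ring of MCM2 to MCM7 in G1 phase, a step called licensing. In S phase CDC45 and the GINS complex join the ring and turn it into an active helicase, and DNA polymerases alpha, delta and epsilon copy the strands behind it. Many of these genes are transcribed under E2F factors as cells pass from G1 into S phase, so their mRNA in a culture depends on how many cells are cycling. In bulk RNA, fewer cells in S phase and less RNA per cell cannot be told apart.

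The values are FPKM, fragments divided by transcript length and by the library total, so levels can be compared between genes. Depth was estimated at 47.1 M (mega) fragments in sh#7 and 47.4 M in both sh#2 and the control. FTO itself measured 2.55 FPKM in sh#7, 5.29 FPKM in sh#2 and 9.02 FPKM in the control, so sh#7 kept 28.2% of the control level (95% interval from 24.0 to 33.1) and sh#2 kept 58.6% (from 51.7 to 66.2). All intervals were computed exactly (Clopper-Pearson) from estimated fragments, and they hold counting error alone. The 10 hepatocyte and hepatoma markers summed to 6284 FPKM in sh#7, 12616 FPKM in sh#2 and 14507 FPKM in the control. Lower than the control by at least 1.5-fold were 6 of the 10 in sh#7, against 6.18% of all genes, and 2 in sh#2, against 2.72%. AFP, the fetal plasma protein alpha-fetoprotein, showed the largest gap among them, at 15.7 FPKM in sh#7, 294 FPKM in sh#2 and 961 FPKM in the control. TTR, a plasma carrier of thyroid hormone, was at 3.43 FPKM in sh#7, 26.6 FPKM in sh#2 and 61.1 FPKM in the control. The hepatocyte factor HNF4A differed little, at 81.3 FPKM in sh#7, 97.5 FPKM in sh#2 and 93.1 FPKM in the control. The 8 fibroblast markers summed to 1.20, 1.80 and 3.77 FPKM in sh#7, sh#2 and the control, with members in opposite directions. PDGFRB was at 0.616, 1.69 and 3.76 FPKM and COL1A1 at 0.578, 0.102 and 0.0149 FPKM in these libraries, with COL1A2, COL3A1, DCN and LUM listed at 0 in every library, and the 5 endothelial markers summed to 0.0567, 0.196 and 0.0852 FPKM. The 7 blood cell markers summed to 24.8, 32.4 and 41.6 FPKM, nearly all of it CD68, with PTPRC and CD3E listed at 0 in every library.

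As a set, the replication genes were higher in both knockdown lines than in the control. Their summed level was 2190 FPKM in sh#7, 2009 FPKM in sh#2 and 1627 FPKM in the control, or 0.413%, 0.361% and 0.288% of all FPKM. The median member was at 25.2 FPKM in sh#7, 25.6 FPKM in sh#2 and 21.3 FPKM in the control. The typical gene of the table was also somewhat higher in the knockdown lines, so differences are set beside the median of all genes. FPKM is scaled to a total in which a few abundant genes weigh heavily, and the share of the 100 most abundant genes was 29.0% in sh#7, 31.3% in sh#2 and 34.7% in the control. The summed levels of the hepatocyte, fibroblast and blood cell markers were lower in both knockdown lines than in the control, though single markers such as COL1A1 were higher, and their part in the result was not tested.

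The order of levels among the members was much the same in the 3 libraries. PCNA, the sliding clamp that holds polymerases on DNA, was the highest in each, at 317 FPKM in sh#7, 302 FPKM in sh#2 and 198 FPKM in the control. MCM3, MCM7, TYMS and POLD2 followed in that order in every library. At the low end stood ORC4, at 4.88 FPKM in sh#7, 5.60 FPKM in sh#2 and 4.87 FPKM in the control, and POLE2, the second subunit of polymerase epsilon, at 6.67 FPKM in sh#7, 6.40 FPKM in sh#2 and 4.27 FPKM in the control. Every member had a mean of at least 5 FPKM, so all 45 passed the minimum mean of 1 FPKM that was set for fold changes. Estimated fragments behind a member ranged from 200 to 29199 a library.

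**Figure D1:**
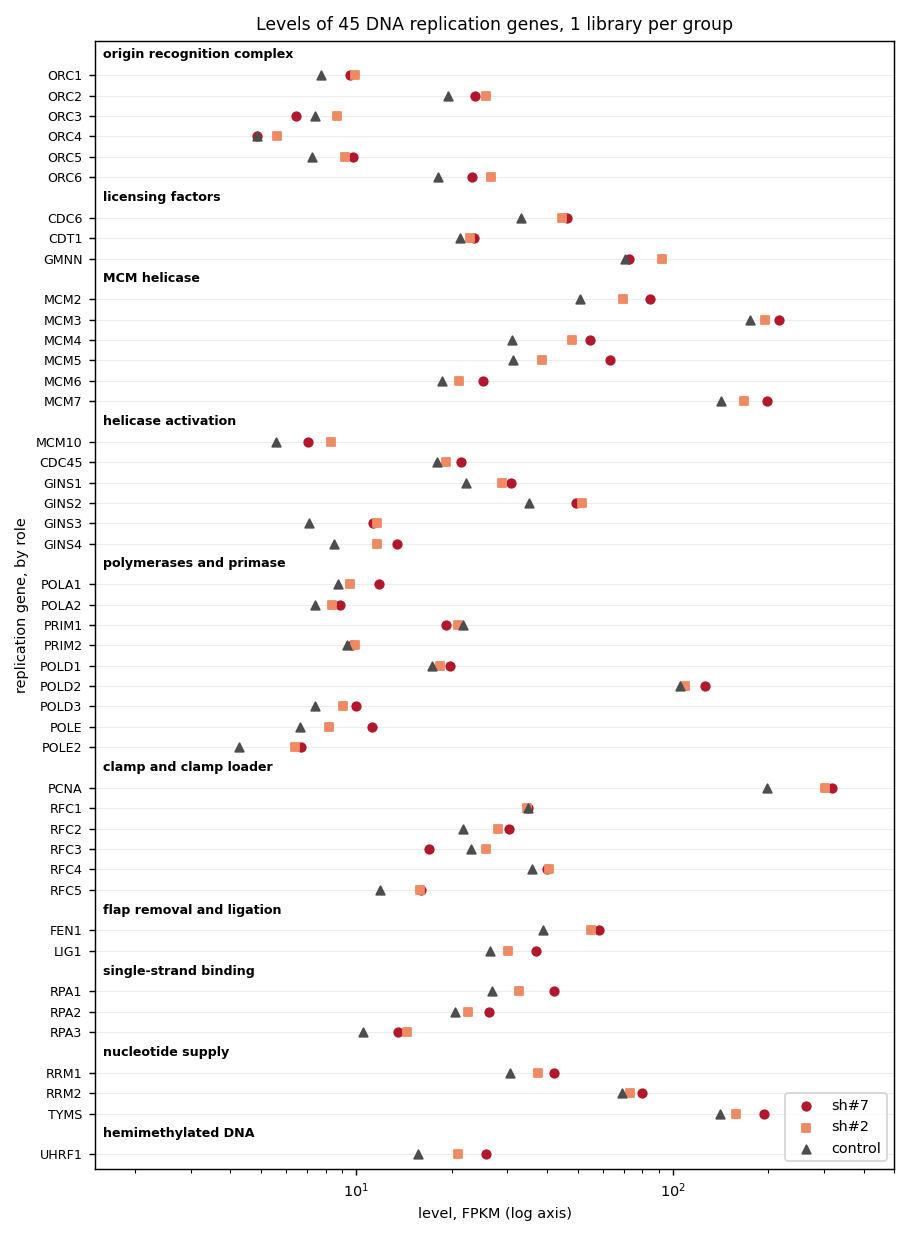
Level of each of the 45 replication genes in FPKM on a log axis, with 1 point per library and genes grouped by role. Each group is 1 library, so no error bar is drawn. Most members lie within 1.5-fold across the 3 libraries, while levels between members span a wide range. The lowest is ORC4 in sh#7 and sh#2, at 4.88 and 5.60 FPKM, and POLE2 in the control, at 4.27 FPKM. The highest is PCNA, at 317, 302 and 198 FPKM in sh#7, sh#2 and the control.

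Differences are given as log2(FPKM + 1) of a line minus that of its comparator, a scale that understates changes of low genes. In sh#7 against the control, the members had a median log2 difference of 0.39, against 0.16 for all 11069 genes whose mean level reached 1 FPKM. This leaves 0.23 above the all-gene median. It stayed between 0.22 and 0.25 under 3 other scalings of the libraries, 2 other pseudocounts and a higher minimum level. A scaling multiplies all genes of a library by the same factor, so it could hardly change a median relative to all genes. A total of 36 of the 45 members lay above the all-gene median, as 50% of all genes do. The 9 at or under it were ORC3, ORC4, CDT1, GMNN, PRIM1, PRIM2, RFC1, RFC3 and RFC4. Only 4 of the 45 differences were at or under 0, against 67.2% of all genes above 0. The range ran from -0.43 for RFC3 to 0.99 for MCM5.

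The differences were modest in size. In sh#7, 9 of the 45 members were higher than in the control by at least 1.5-fold (20.0%), where 9.61% of all genes were, and 0 were lower by that much, where 6.18% were. The 9 were MCM2, MCM4, MCM5, GINS3, GINS4, POLE, PCNA, RPA1 and UHRF1. On this scale none reached 2-fold in either direction, though MCM5 did with a pseudocount of 0.1, and 2.35% of all genes were higher and 2.48% lower by that much. The count depended on the scaling: median-of-ratios scaling left 2, MCM4 and MCM5, against 4.97% of all genes, a share near the background, and upper-quartile scaling left 3, those and MCM2, against 6.22%. Scaling to a total without the 100 most abundant genes left 7, against 8.7%. Under median-of-ratios scaling RFC3 was lower by at least 1.5-fold, against 9.23% of all genes. The sign of a small difference turned under another scaling for ORC4, CDT1, GMNN, PRIM2 and RFC4.

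In sh#2 against the control, the median log2 difference of the members was 0.28, or 0.18 above the all-gene median of 0.10. A total of 37 of 45 members lay above that median, against 50% of all genes, and 43 were above 0, against 67.2%. Higher by at least 1.5-fold were 3 members, GINS3, MCM4 and PCNA, against 2.67% of all genes, and 0 were lower by that much, against 2.72%. With median-of-ratios and upper-quartile scaling 0 members were higher by 1.5-fold, against 1.53% and 1.72% of all genes, and GINS3 alone was without the 100 most abundant genes, against 2.16%. None reached 2-fold, where 0.506% of all genes were higher and 0.723% lower. Here the sign of a small difference turned under another scaling for CDT1, CDC45, PRIM2, POLD1, POLD2 and RRM2. The range was narrower than in sh#7, from -0.04 for PRIM1 to 0.64 for GINS3. Both knockdown lines were set against the same control library, so an unusual value in that library enters both differences.

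Set directly against each other, the lines differed little over the set. In sh#7 against sh#2 the members' median log2 difference was 0.08, against 0.05 for all genes, and 28 of 45 lay above the all-gene median, against 50% of all genes. Above 0 were 31 members, against 57.3% of all genes, and the sign turned under another scaling for CDC6, CDT1, POLE2, RFC1 and RFC5. MCM5 alone was higher by at least 1.5-fold, against 5.14% of all genes, and 0 members were lower, against 4.55%. MCM5 stayed the 1 gene past that limit with median-of-ratios scaling, upper-quartile scaling and a total without the 100 most abundant genes, against 4.06%, 4.57% and 5.49% of all genes. RFC3 came close, at -0.58, and passed the same limit with pseudocounts of 0.1 and 0.5 and with median-of-ratios and upper-quartile scaling, against 5.42% and 5.03% of all genes under these scalings. Counting error alone was small: the interval of the ratio lay above 1 in 38 members, below 1 in 3 and held 1 in 4 for sh#7 against control. The same counts were 38, 0 and 7 for sh#2 against control and 21, 6 and 18 for sh#7 against sh#2. These counts describe precision only. Intervals were not counted over all genes, of which 67.2% were above 0 in each comparison with the control.

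**Figure D2:**
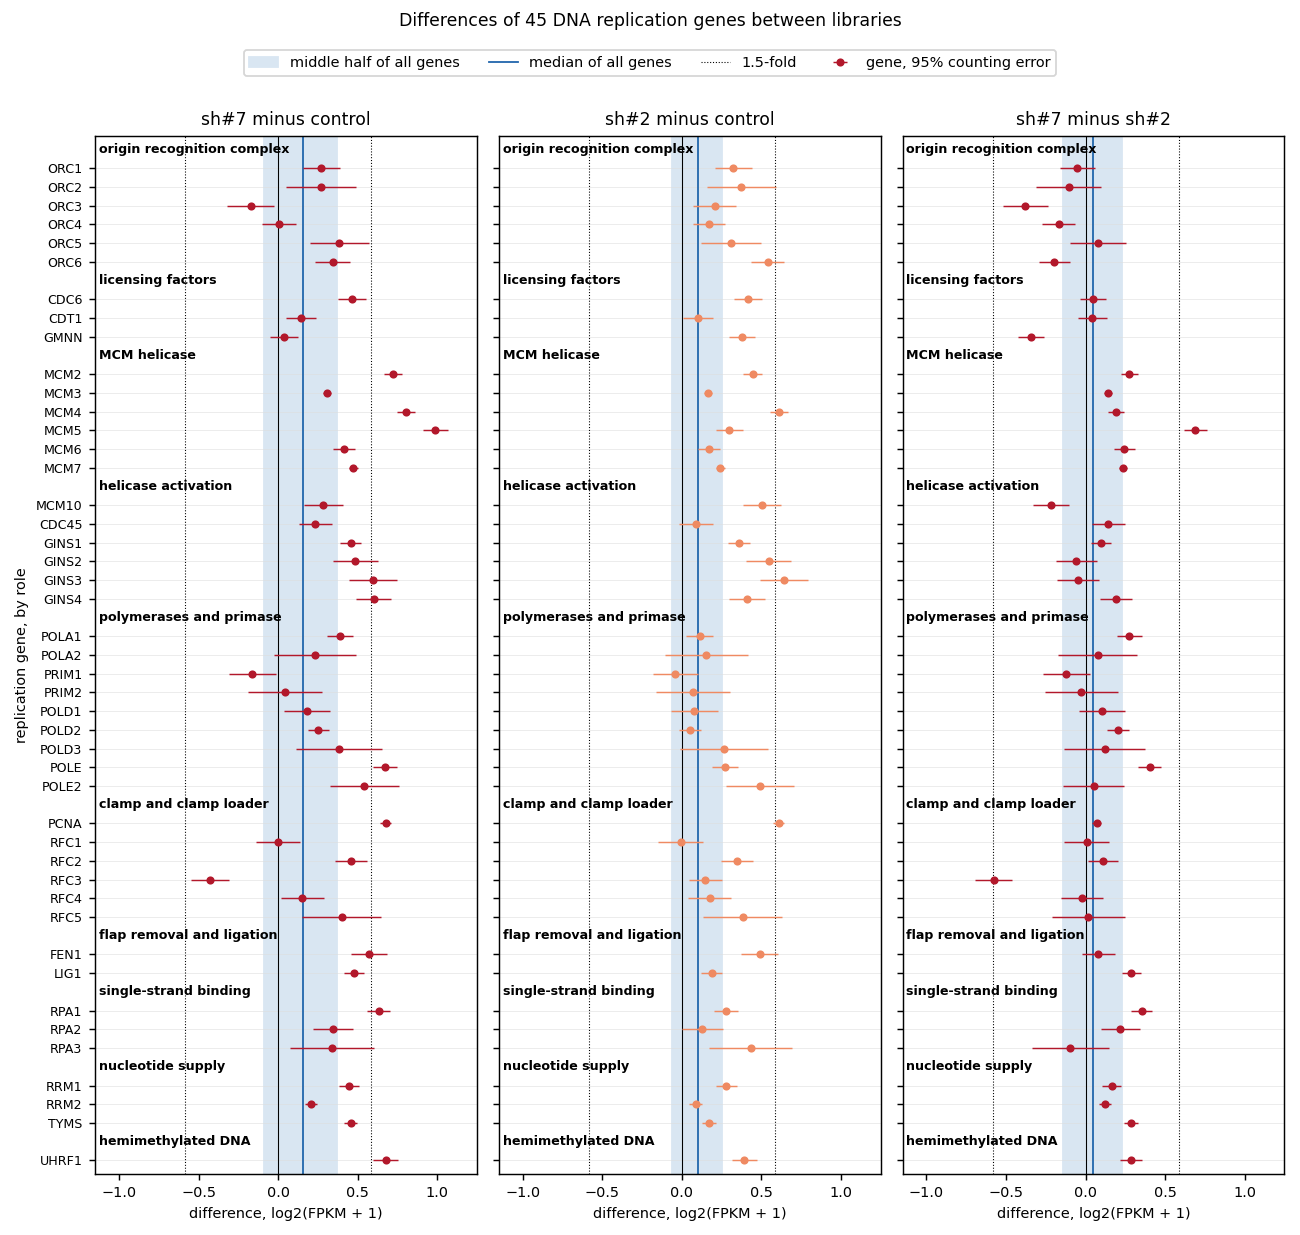
Log2 difference of each member in sh#7 against control, sh#2 against control and sh#7 against sh#2, with genes in the order of their roles. Whiskers have the width of the 95% counting interval from estimated fragments, centred on the point, and hold no spread between cultures. The solid blue line is the all-gene median, and the dotted lines mark 1.5-fold. Points of the sh#2 panel are drawn in orange. MCM5 stands furthest right in sh#7 against control at 0.99, and RFC3 furthest left at -0.43.

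Sequences upstream of these genes were searched for letters that some members share. RefSeq promoter windows on GRCh38.p14, from 250 bases before to 50 bases after the transcript start, were searched on both strands for 4 spellings of the E2F site, TTTGGCGC, TTTCCCGC, TTTCGCGC and TTTGCCGC. At least 1 window was held for 39 of the 45 members, with 51 windows between them. Some members have several starts, and a word in any of their windows counted for the member. MCM4, MCM5, GINS4, POLD3, RPA2 and RPA3 were not searched. The sites shown belong to members whose levels the results turn on, each with 30 bases read 5′ to 3′ on the gene's strand and the matched letters in capitals. Positions are counted from the transcript start, with negative ones before it. In GCGGGAAA and GCGCCAAA the match lies on the opposite strand, and TTTGGCGCGAAA and TTTCGCGCGAAA hold overlapping matches on both strands. For MCM3, MCM7 and UHRF1, 1 of their sites is shown. The MCM2 site begins at 3 (chr3:127598404-127598433, plus strand), the MCM3 site at -4 (chr6:52284728-52284757, minus strand), the MCM6 sites at -152 (chr2:135876575-135876604, minus strand) and -90 (chr2:135876513-135876542, minus strand) and the MCM7 site at -9 (chr7:100101388-100101417, minus strand). The GINS3 site begins at -5 (chr16:58392455-58392484, plus strand), that of POLE at -18 (chr12:132687342-132687371, minus strand), that of PCNA at -59 (chr20:5126663-5126692, minus strand), that of UHRF1 at -14 (chr19:4909476-4909505, plus strand) and that of RFC3 at -55 (chr13:33818083-33818112, plus strand).
MCM2: tgaaccactTTTCGCGCGAAAcctggttgt
MCM3: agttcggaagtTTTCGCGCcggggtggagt
MCM6: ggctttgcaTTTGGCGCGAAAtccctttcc
MCM6: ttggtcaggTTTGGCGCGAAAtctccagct
MCM7: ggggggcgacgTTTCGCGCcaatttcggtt
GINS3: cgtccccgggcGCGGGAAAcgagtttcaat
POLE: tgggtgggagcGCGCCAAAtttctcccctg
PCNA: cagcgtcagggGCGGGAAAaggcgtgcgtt
UHRF1: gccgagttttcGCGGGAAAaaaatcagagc
RFC3: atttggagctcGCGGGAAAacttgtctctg

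At least 1 of these E2F words stood in the windows of 20 of the 39 members (51.3%), against 3.99% of all 27305 genes with a window and 6.97% of the 7937 compared genes with one. All 4 searched MCM genes and all 3 licensing factors held one, as did 3 of 5 helicase activation genes, 4 of 8 polymerase and primase genes, 2 of 6 clamp and loader genes and 1 of 6 ORC genes, ORC3. The CCAAT box, searched as CCAAT on both strands and bound by the factor NF-Y, stood in the windows of 24 members (61.5%), against 39.7% of all genes and 43.8% of compared genes. The cell cycle homology region (CHR), searched as TTTGAA and TTTAAA and known from genes expressed in G2 and M phase, stood in those of 4 members (10.3%), against 27.9% of all genes and 20.8% of compared genes. In a list of mitotic genes, 19 of 22 searched genes held a CHR word (86.4%), 17 a CCAAT box (77.3%) and 3 an E2F word (13.6%). The mitotic shares were thus above those of all genes for CHR words, the CCAAT box and, by less than in the replication genes, E2F words. The replication genes were above all genes for E2F words and the CCAAT box and below them for CHR words. The mitotic share with an E2F word rests on 3 genes. With 150 bases before the start it was 4.55%, from 1 gene, against 2.85% of all genes and 5.08% of compared genes. A match is a description of letters and shows no binding, and where no match was found these letters were not in this window.

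The MCM6 and PCNA windows show both words together. The 250 bases before the start are printed 5′ to 3′ on the gene's strand, from RefSeq on GRCh38.p14 (chr2:135876444-135876693, minus strand for MCM6 and chr20:5126623-5126872, minus strand for PCNA), with E2F words and CCAAT boxes in capitals. ATTGG is the CCAAT box read on the opposite strand. MCM6 holds 2 E2F sites and 2 CCAAT boxes there, and PCNA holds 1 E2F site and 3 CCAAT boxes. PCNA has a further window at another start (chr20:5119959-5120208, minus strand), not printed, with 0 E2F sites and 2 CCAAT boxes.
MCM6: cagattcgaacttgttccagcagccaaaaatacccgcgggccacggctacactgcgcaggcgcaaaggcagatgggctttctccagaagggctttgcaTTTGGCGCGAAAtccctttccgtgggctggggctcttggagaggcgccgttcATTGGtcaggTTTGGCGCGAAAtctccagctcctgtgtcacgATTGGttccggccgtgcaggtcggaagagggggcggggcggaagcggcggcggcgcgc
PCNA: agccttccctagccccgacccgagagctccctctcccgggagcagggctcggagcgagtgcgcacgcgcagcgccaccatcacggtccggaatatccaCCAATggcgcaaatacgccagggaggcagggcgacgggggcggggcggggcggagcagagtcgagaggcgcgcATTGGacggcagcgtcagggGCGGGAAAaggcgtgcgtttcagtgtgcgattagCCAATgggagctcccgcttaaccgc

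In sh#7 against the control, the 20 members with an E2F word had a median log2 difference of 0.46 and the 19 searched members without one 0.27. In sh#2 the medians were 0.26 with and 0.28 without the word. MCM4, MCM5, GINS4, POLD3, RPA2 and RPA3 had no window and are in neither set. This leaves out MCM5 and MCM4, whose differences in sh#7, 0.99 and 0.80, were the largest of the members. The presence of the word did not sort members by direction: RFC3, the lowest in sh#7, carries one just as MCM2 and PCNA do.

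**Figure D3:**
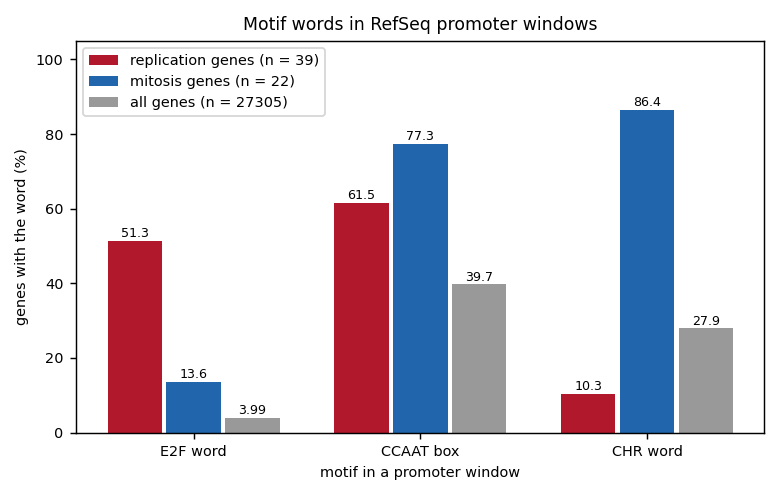
Share of genes whose promoter window holds an E2F word, a CCAAT box or a CHR word, in percent, for the 39 searched replication genes, the 22 searched mitotic genes and all 27305 genes with a RefSeq window. The bars of the replication genes reach 51.3%, 61.5% and 10.3%.

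ORC genes, which mark origins, were low in level and varied among themselves. ORC2 and ORC6 were the highest of the 6, with ORC2 at 23.7 FPKM in sh#7, 25.6 FPKM in sh#2 and 19.5 FPKM in the control, and ORC6 at 23.2 FPKM in sh#7, 26.7 FPKM in sh#2 and 18.1 FPKM in the control. ORC1, the subunit that is itself regulated through the cell cycle, was at 9.55 FPKM in sh#7, 9.93 FPKM in sh#2 and 7.73 FPKM in the control. These 3 genes were above the control in both knockdown libraries. The median log2 difference of the 6 genes was 0.27 in sh#7 and 0.32 in sh#2 against the control. ORC3 was at 6.47 FPKM in sh#7, 8.71 FPKM in sh#2 and 7.42 FPKM in the control, the lowest in sh#7 and the highest in sh#2, with log2 differences of -0.17 and 0.21, so the lines lay on opposite sides of the control. ORC5 measured 9.77 FPKM in sh#7, 9.21 FPKM in sh#2 and 7.25 FPKM in the control. The log2 difference of ORC4 was 0.00 for sh#7 and 0.17 for sh#2, and its exons overlap other genes on the opposite strand. Within the complex the highest subunit was at 4.86, 4.77 and 4.01 times the lowest in sh#7, sh#2 and the control.

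The 3 licensing factors were above the control in both lines on the deposited scaling and differed in size. Their median log2 difference was 0.14 in sh#7 and 0.38 in sh#2, or -0.01 and 0.27 relative to the all-gene medians. CDT1 was just under the all-gene median in both lines and GMNN was under it in sh#7. CDC6, the loader that recruits the MCM ring to ORC, was at 46.2 FPKM in sh#7, 44.6 FPKM in sh#2 and 33.2 FPKM in the control, higher in both knockdown lines with log2 differences of 0.46 and 0.42. CDT1, its partner in loading, differed less, at 23.6 FPKM in sh#7, 22.9 FPKM in sh#2 and 21.3 FPKM in the control. GMNN encodes geminin, which binds CDT1 and blocks a further round of licensing. It was at 72.5 FPKM in sh#7, 92.1 FPKM in sh#2 and 70.7 FPKM in the control, so only the sh#2 library stood apart, by 0.38 on the log2 scale. The level of CDT1 was 0.325 times that of GMNN in sh#7, 0.248 times in sh#2 and 0.301 times in the control.

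The MCM helicase genes showed the highest median of the roles with 3 or more members in sh#7. Their median log2 difference was 0.60 in sh#7 and 0.27 in sh#2, and all 6 were above the control in both lines and higher in sh#7 than in sh#2. MCM5 was at 63.0 FPKM in sh#7, 38.7 FPKM in sh#2 and 31.3 FPKM in the control. Its level in sh#7 was 2.01 times (95% interval 1.91 to 2.13) that of the control and 1.63 times (95% interval 1.55 to 1.71) that of sh#2, and it passed 1.5-fold in both comparisons under every setting tried. Against its neighbour subunit MCM2, MCM5 stood at 0.745 times in sh#7, 0.555 times in sh#2 and 0.614 times in the control.

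MCM4 was at 54.8 FPKM in sh#7, 47.8 FPKM in sh#2 and 31.0 FPKM in the control, 1.77 times (95% interval 1.70 to 1.84) the control in sh#7 and 1.54 times (95% interval 1.48 to 1.61) in sh#2. MCM2 was at 84.6 FPKM in sh#7, 69.7 FPKM in sh#2 and 50.9 FPKM in the control, a log2 difference of 0.72 in sh#7 and 0.45 in sh#2. With MCM5 these were the larger gaps of the ring in sh#7. The other subunits had smaller ones: MCM3, the most abundant subunit, was at 216 FPKM in sh#7, 195 FPKM in sh#2 and 174 FPKM in the control, and MCM7 at 197 FPKM in sh#7, 168 FPKM in sh#2 and 142 FPKM in the control. MCM6 was the least abundant, at 25.2 FPKM in sh#7, 21.1 FPKM in sh#2 and 18.7 FPKM in the control. The subunits assemble in equal number, yet mRNA of MCM3 was at 8.57, 9.26 and 9.35 times that of MCM6 in sh#7, sh#2 and the control. MCM7 overlaps exons of AP4M1 on the opposite strand, and the sources used here do not say whether reads were counted by strand.

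Genes of helicase activation were higher by a similar median in both lines, 0.47 in sh#7 and 0.46 in sh#2. The GINS complex, which links the helicase to polymerase epsilon, led them. GINS3 was at 11.3 FPKM in sh#7, 11.7 FPKM in sh#2 and 7.11 FPKM in the control, and GINS2, the most abundant of the 4, was at 49.4 FPKM in sh#7, 51.5 FPKM in sh#2 and 35.0 FPKM in the control. GINS1 was at 30.9 FPKM in sh#7, 28.8 FPKM in sh#2 and 22.3 FPKM in the control, and GINS4 at 13.4 FPKM in sh#7, 11.7 FPKM in sh#2 and 8.52 FPKM in the control. In all 4 GINS genes both knockdown libraries stood above the control and close to each other. CDC45, the other partner of the active helicase, differed little, at 21.4 FPKM in sh#7, 19.3 FPKM in sh#2 and 18.0 FPKM in the control. MCM10, a firing factor that is not part of the ring, was at 7.02 FPKM in sh#7, 8.33 FPKM in sh#2 and 5.59 FPKM in the control, highest in sh#2.

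Polymerase and primase genes lay nearer to the background than the MCM helicase and helicase activation genes. The median log2 difference of the 9 genes was 0.25 in sh#7 and 0.11 in sh#2, or 0.10 and 0.01 above the all-gene medians. POLE, the catalytic subunit of the leading strand polymerase, had the largest difference of the 9 in sh#7, at 11.2 FPKM in sh#7, 8.23 FPKM in sh#2 and 6.65 FPKM in the control, with log2 differences of 0.67 and 0.27. Its partner POLE2 was higher in both lines, by 0.54 and 0.49. Subunits of polymerase delta, which copies the lagging strand, differed less. POLD1, its catalytic subunit, was at 19.8 FPKM in sh#7, 18.4 FPKM in sh#2 and 17.3 FPKM in the control, and the accessory subunit POLD3 at 9.96 FPKM in sh#7, 9.09 FPKM in sh#2 and 7.39 FPKM in the control. POLD2, the most abundant, was at 126 FPKM in sh#7, 109 FPKM in sh#2 and 106 FPKM in the control. That is 12.6, 12.0 and 14.3 times the level of POLD3 in sh#7, sh#2 and the control.

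The primase, which lays the RNA primers, differed little between libraries. PRIM1, its catalytic subunit, was at 19.2 FPKM in sh#7, 21.0 FPKM in sh#2 and 21.7 FPKM in the control, with log2 differences of -0.16 and -0.04. PRIM2, the regulatory subunit, was at 9.69 FPKM in sh#7, 9.89 FPKM in sh#2 and 9.38 FPKM in the control. The polymerase alpha subunits that extend the primers were somewhat higher in sh#7, with POLA1 at 11.8 FPKM in sh#7, 9.55 FPKM in sh#2 and 8.76 FPKM in the control and POLA2 at 8.89 FPKM in sh#7, 8.38 FPKM in sh#2 and 7.43 FPKM in the control. PRIM1 overlaps exons of HSD17B6 on the opposite strand.

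The clamp and its loader parted. PCNA was 1.60 times (95% interval 1.56 to 1.64) the control in sh#7 and 1.53 times (95% interval 1.49 to 1.56) in sh#2. RFC1, the large subunit of the loader that opens the clamp, was nearly equal in the 3 libraries, at 34.8 FPKM in sh#7, 34.6 FPKM in sh#2 and 34.8 FPKM in the control, so PCNA was at 9.11 times the level of RFC1 in sh#7, 8.72 times in sh#2 and 5.68 times in the control. The small loader subunits did not move together. RFC2 was at 30.3 FPKM in sh#7, 28.0 FPKM in sh#2 and 21.8 FPKM in the control, and RFC5 at 16.0 FPKM in sh#7, 15.9 FPKM in sh#2 and 11.9 FPKM in the control. RFC4 was at 40.0 FPKM in sh#7, 40.7 FPKM in sh#2 and 35.9 FPKM in the control, with a log2 difference of 0.15 in sh#7, about that of all genes. RFC3 was at 16.9 FPKM in sh#7, 25.7 FPKM in sh#2 and 23.1 FPKM in the control, 0.732 times (95% interval 0.674 to 0.795) the control in sh#7 and 1.11 times (95% interval 1.03 to 1.20) in sh#2. The level of RFC3 was thus 0.559 times that of RFC2 in sh#7, 0.919 times in sh#2 and 1.06 times in the control. PCNA, RFC3 and RFC5 have pseudogenes named after them in GENCODE 29, as do POLD2, FEN1, RPA2, RRM2 and TYMS, so reads of these 8 genes may have been split and their values are less certain. RFC5 also overlaps exons of WSB2 on the opposite strand.

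Enzymes that mature lagging strand fragments were both higher. FEN1, the flap nuclease, was at 58.2 FPKM in sh#7, 55.0 FPKM in sh#2 and 38.9 FPKM in the control, with log2 differences of 0.57 and 0.49. LIG1, the ligase that seals the fragments, was at 37.1 FPKM in sh#7, 30.2 FPKM in sh#2 and 26.4 FPKM in the control, with 0.48 and 0.19.

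Replication protein A coats the single-stranded DNA behind the helicase. Its large subunit RPA1 was at 42.1 FPKM in sh#7, 32.7 FPKM in sh#2 and 26.8 FPKM in the control, 1.57 times (95% interval 1.49 to 1.65) the control in sh#7. RPA2 followed with a smaller gap, at 26.3 FPKM in sh#7, 22.5 FPKM in sh#2 and 20.5 FPKM in the control, and RPA3 was at 13.5 FPKM in sh#7, 14.5 FPKM in sh#2 and 10.5 FPKM in the control, highest in sh#2. The highest subunit was therefore at 3.11 times the lowest in sh#7, 2.26 times in sh#2 and 2.55 times in the control. RPA1 overlaps exons of SMYD4 on the opposite strand.

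Of the nucleotide supply enzymes, TYMS, which makes thymidylate, was at 193 FPKM in sh#7, 158 FPKM in sh#2 and 141 FPKM in the control, with log2 differences of 0.46 and 0.17. RRM1, the large subunit of ribonucleotide reductase, was at 42.1 FPKM in sh#7, 37.5 FPKM in sh#2 and 30.7 FPKM in the control, while RRM2, its S phase subunit, was at 79.6 FPKM in sh#7, 73.1 FPKM in sh#2 and 68.8 FPKM in the control. The gap was smaller for RRM2, and the level of RRM2 over RRM1 was 1.89 in sh#7, 1.95 in sh#2 and 2.24 in the control. TYMS overlaps exons of ENOSF1 on the opposite strand. UHRF1, which reads hemimethylated DNA behind the fork and brings in DNMT1, was at 25.7 FPKM in sh#7, 20.9 FPKM in sh#2 and 15.7 FPKM in the control, with log2 differences of 0.68 and 0.39.

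Related gene lists are counted on the deposited scaling, where the all-gene shares past 1.5-fold were 9.61% higher and 6.18% lower in sh#7 and 2.67% higher and 2.72% lower in sh#2. Of 24 compared genes of other fork and firing factors, 4 were higher in sh#7 by at least 1.5-fold (CLSPN, POLE3, RNASEH2B and TIMELESS) and 0 lower, and in sh#2 POLE3 was higher and POLD4 lower, 1 gene in each direction as against 2.67% and 2.72% of all genes. Their median stood at 0.30 in the sh#7 line and 0.21 in the sh#2 line. POLE3, a histone-fold subunit of polymerase epsilon, was at 90.4 FPKM in sh#7, 72.9 FPKM in sh#2 and 47.3 FPKM in the control, a larger gap than POLE or POLE2. CLSPN, which encodes the fork adaptor claspin, was at 6.60 FPKM in sh#7, 4.73 FPKM in sh#2 and 3.37 FPKM in the control. Among 14 compared genes of other nucleotide supply, CAD, SAMHD1 and TK1 were higher in sh#7 by at least 1.5-fold (21.4%, against 9.61% of all genes) and 0 lower (6.18%). In sh#2 there were 0 in either direction (2.67% and 2.72% of all genes). In so short a list these counts say little. CAD, which starts pyrimidine synthesis, was at 23.7 FPKM in sh#7, 18.1 FPKM in sh#2 and 13.2 FPKM in the control. The median log2 difference of that list was 0.25 in sh#7 and 0.17 in sh#2.

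Chromatin factors of the fork had medians of 0.36 in sh#7 and 0.27 in sh#2 over 10 genes, with 0 past 1.5-fold in either line against the control. DNMT1, the maintenance methyltransferase that works with UHRF1, was at 51.1 FPKM in sh#7, 42.9 FPKM in sh#2 and 34.7 FPKM in the control. Among 18 E2F and RB family genes, whose products control S phase transcription, the log2 differences had a median of 0.43 in sh#7 and 0.22 in sh#2. In sh#7, E2F4, E2F7, E2F8, RBL1 and TFDP1 were higher by at least 1.5-fold (9.61% of all genes) and 0 lower (6.18%), and in sh#2 E2F8 was higher (2.67%) and RBL2 lower (2.72%). E2F8, a repressor in the family, was at 5.46 FPKM in sh#7, 5.47 FPKM in sh#2 and 3.11 FPKM in the control. E2F7, its close relative, was at 5.12 FPKM in sh#7, 3.24 FPKM in sh#2 and 2.49 FPKM in the control. COL1A1, the markers listed at 0, TIMELESS, POLD4, TFDP1, RBL2 and UBE2C were named after their values were seen.

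The mitotic genes stood lower than the replication genes in sh#7. The 28 genes of that list had a median log2 difference of 0.05 in sh#7, under the all-gene median of 0.16 except with no filter on low values, where that median is about 0. Of the 28, 15 were above the control and 13 below it, where 67.2% of all genes were above. In sh#2 their median was 0.14, against 0.10 for all genes. In sh#7 CENPF alone was higher by at least 1.5-fold (9.61% of all genes), and in sh#2 UBE2C alone (2.67%), with 0 lower in either (6.18% and 2.72%). The proliferation marker MKI67 was at 26.3 FPKM in sh#7, 21.6 FPKM in sh#2 and 17.6 FPKM in the control, nearer to the replication genes, and CDC20, which starts anaphase, was at 70.6 FPKM in sh#7, 73.7 FPKM in sh#2 and 57.0 FPKM in the control. The difference between the lists was not tested.

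**Figure D4:**
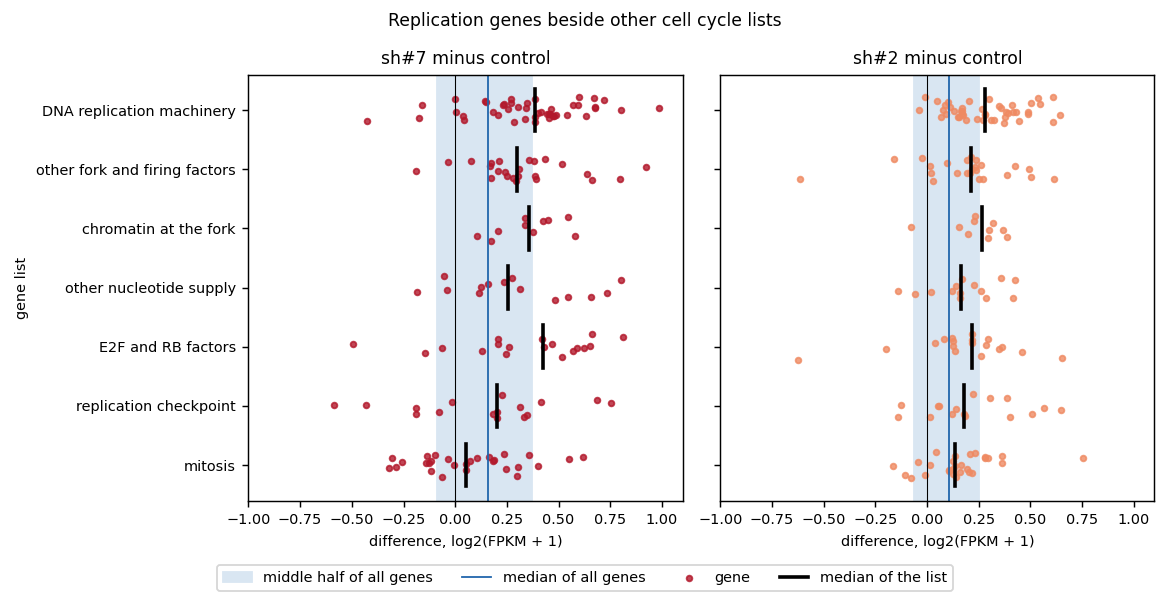
Log2 differences by list in sh#7 against control and sh#2 against control, with 1 point per gene, a bar at each list's median and a solid blue line at the all-gene median. In sh#7 the median of the replication genes lies at 0.39, and the mitosis median at 0.05, left of the line at 0.16.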

How the data were processed

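The authors deposited 1 table of FPKM values, with genes in rows and the 3 libraries in columns. The tools named in the submitters' processing notes are Cufflinks 2.2.1, STAR 2.4.0j and HTSeq, on build hg19. Which step each did, the annotation and the strandedness are not given in the sources used here. FPKM allows no count model, and 1 library a group allows no test. Differences are log2(FPKM + 1), for 11069 genes whose mean level reached 1 FPKM. Depth was estimated from single-fragment steps in 1880 genes with 1 transcript over 800 nt in GENCODE 29, less an offset of 210 nt, and is approximate. The limits of 1.5-fold and 2-fold describe size only. The members and lists were chosen with earlier results of these data known. All members are named. Of each other list, the rule named the 4 genes with the largest absolute mean difference from the control, and markers at 1 FPKM or more in a library, and genes outside it are marked. Alternatives were pseudocounts of 0.1 and 0.5, a minimum mean of 5 FPKM or none, median-of-ratios and upper-quartile scaling, a total without the 100 highest genes, the mean in place of the median, and 150 bases before the start. Overlap with genes on the opposite strand was called from 50 exon bases. TICRR and CTPS1 were not analysed here. The steps were tested on simulated data. Python 3.11.15, pandas 2.3.3, numpy 2.4.6, scipy 1.17.1 and matplotlib 3.10.9 were used.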

Additional observations from a re-analysis of the deposited data

Results flagged for a closer look

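For some genes the lines lay on opposite sides of the control beyond counting error, on the deposited scaling. Each line is 1 library, and the difference between the lines was not tested. The origin recognition gene ORC3 had log2(FPKM + 1) differences from the control of -0.17 in sh#7 and 0.21 in sh#2. The clamp loader gene RFC3 differed by -0.43 in sh#7 and 0.15 in sh#2, and its reads may be shared with a pseudogene. Among hepatocyte markers, ALB, a plasma protein gene, differed by -1.49 in sh#7 and 0.01 in sh#2, APOB, an apolipoprotein gene, by -0.30 in sh#7 and 0.07 in sh#2, and the transcription factor gene HNF4A by -0.19 in sh#7 and 0.07 in sh#2. The all-gene median in sh#2 was 0.10, so relative to all genes ALB, APOB and HNF4A were lower in both lines. Of other cell cycle genes, UBE2C differed by -0.14 in sh#7 and 0.75 in sh#2, and SKP2 by -0.43 in sh#7 and 0.65 in sh#2.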

How the results depend on the processing

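No difference past 1.5-fold changed direction, but the settings could hardly have produced such a change. A pseudocount or a filter cannot turn the sign of a gene's difference, and the scalings shifted genes by far less than 1.5-fold. Of 471 recomputed summary values 435 stayed within the counting interval or within 1.5 times the count and 36 moved. Those that are medians relative to all genes could hardly move under a scaling, which shifts all genes of a library nearly alike. Of 966 recomputed values of single genes and complexes 130 moved, among them 73 of 135 under median-of-ratios scaling, where in sh#7 the difference of MCM3 became 0.12 and that of CDC6 became 0.28. The 966 include 135 values with a minimum mean of 5 FPKM and 135 with no filter. A single gene's difference does not depend on that filter, so these could not move. With no filter on low values, genes near 0 enter, the all-gene median goes to about 0, and medians relative to it move for that reason alone. In sh#7 this took mitosis and licensing from below that median (-0.10 and -0.01) to above it. The values there became 0.38 for the members, 0.27 for ORC, 0.14 for licensing, 0.60 for MCM, 0.47 for helicase activation, 0.25 for polymerases, 0.27 for the clamp and loader, 0.34 for RPA, 0.44 for nucleotide supply, 0.30 for other fork factors, 0.25 for other nucleotide supply, 0.36 for chromatin, 0.42 for E2F and RB, 0.053 for mitosis, 0.20 for the checkpoint and -0.77 for hepatocyte markers. In sh#2 they became 0.38 for licensing, 0.27 for MCM, 0.17 for nucleotide supply, 0.27 for chromatin, 0.14 for mitosis and -0.081 for hepatocyte markers, and in sh#7 against sh#2, 0.16 for nucleotide supply and -0.44 for hepatocyte markers. Members higher by 1.5-fold in sh#7 numbered 2 with median-of-ratios and 3 with upper-quartile scaling, and 1 was lower with median-of-ratios scaling. In sh#2 they numbered 0 and 0 with these scalings and 1 without the 100 highest genes. In sh#7 against sh#2, 1 member was lower with pseudocounts of 0.1 and 0.5 and with the median-of-ratios and upper-quartile scalings. With a pseudocount of 0.1, 1 member reached 2-fold in sh#7 and FTO differed by -1.78. The cause of the changed counts was not tested. No paired analysis was possible because a group has a single library, and for the same reason no library could be left out. Depth gives narrow counting intervals, while the spread between cultures is unknown.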

Other observations

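Among 16 genes of the replication checkpoint and the control of S phase entry, the log2 differences from the control had a median of 0.20 for sh#7 and 0.18 for sh#2. In sh#7, ATR and DTL were higher than in the control by at least 1.5-fold (9.61% of all genes) and CHEK2 was lower (6.18%), and in sh#2 SKP2 was higher (2.67%) and 0 were lower (2.72%). The counts in sh#7 are near the shares of all genes. ATR, the kinase that answers stalled forks, was at 3.94 FPKM in sh#7, 2.31 FPKM in sh#2 and 1.93 FPKM in the control. DTL, which brings a ubiquitin ligase to CDT1 on loaded PCNA, was at 12.8 FPKM in sh#7, 9.07 FPKM in sh#2 and 7.62 FPKM in the control. SKP2, a ubiquitin ligase subunit that also targets CDT1, was at 11.9 FPKM in sh#7, 26.3 FPKM in sh#2 and 16.4 FPKM in the control, and its log2 difference of -1.08 in sh#7 against sh#2 passed 2-fold, against 1.52% of all genes lower by that much. UBE2C, a ubiquitin-conjugating enzyme of the anaphase-promoting complex, had its highest value in sh#2 too, at 49.7 FPKM in sh#7, 93.0 FPKM in sh#2 and 54.7 FPKM in the control. CHEK2, SKP2 and UBE2C were named after their values were seen.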
